A study of Rattus norvegicus with 17 samples.

Results

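The 10 imprinted genes described here were Peg3, its antisense transcript Apeg3, Igf2, H19, Igf2r, Dlk1, Meg3, Grb10, Cdkn1c and Snrpn, out of 34322 genes counted in rat hippocampus. They were chosen by name, with earlier results of these data known, and Apeg3 and Snrpn had already been seen to differ between the diet groups. The diet values of the 10 genes are therefore given as a description. All 10 were found in the count table, with Meg3 under its older symbol RGD1566401.

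RNA was sequenced from the hippocampus of 17 Long-Evans rats, an outbred strain, aged 36 to 38 days. The 5 ET rats came from a dam given a liquid diet with 6.7% ethanol, which supplied 36% of its calories, from gestational day 0 to 20. The 6 pair-fed (PF) rats came from a dam given a matched liquid diet without ethanol, and the 6 AD rats from a dam given chow ad libitum. Each diet group was a single litter, so litter and diet cannot be told apart, and the spread within a group is that between litter mates. By the labels, ET held 3 males and 2 females, and PF and AD held 3 of each sex. The right hippocampus was used for ET replicate 2, PF replicates 1 and 6 and AD replicate 3, and the left for the others. Side was in no fit. Libraries held 10853947 to 17498392 fragments counted on genes. The final analysis of the study used 14 libraries (4 ET, 5 PF and 5 AD). Replicate 2 of ET, animal 11f6 of PF and replicate 4 of AD were left out by the study because they stood apart in its principal components analysis. As seen here, the summed normalized count of 10 choroid plexus markers was 128710 to 149768 in these 3 libraries and 2848 to 23357 in the other 14. PF animals 11f5 and 11f6 are called by their animal names because their replicate numbers could not be matched. All 6 markers of hippocampal neurons were detected in each group, with a sum of 7091 to 11948 in the 14 libraries. The Y-linked transcripts went against the labelled sex in 2 of the 6 AD libraries and in none of the ET and PF libraries.

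An imprinted gene is transcribed mainly from the maternal or mainly from the paternal copy, according to DNA methylation laid down in the egg or the sperm. Many imprinted genes lie in clusters that share a control region, and several clusters hold a long non-coding RNA beside the protein-coding genes. Paternally expressed genes such as Igf2, Dlk1 and Peg3 are known for roles in growth and maternal behaviour, and Cdkn1c, Grb10 and Igf2r, which are maternally expressed in many tissues, are known to restrain growth. Imprinting can differ between tissues: in neurons Grb10 is made from the paternal copy, and Igf2r from both copies. In the brain the Prader-Willi region, which holds Snrpn, is one of the best studied imprinted clusters.

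A gene was called different between 2 diet groups when the adjusted p-value of the edgeR quasi-likelihood test was below 0.01 and the log2 fold change was above 1.5 in size. In ET against PF, 9 of the 10 genes passed the filter on low counts and 2 were called, Apeg3 and Snrpn, both lower in ET, where 2.13% of all genes tested were called lower, 0.0373% higher and 2.17% in either direction. By an unadjusted p below 0.05, which 11.9% of all genes passed, Meg3 (lower) and Cdkn1c (higher) passed as well. In PF against AD the same 2 of 9 were called higher in PF, where 2.02% of all genes were called higher, 0.0251% lower and 2.05% in either direction. By an unadjusted p below 0.05, which 16.4% of all genes passed, Meg3 (higher in PF) and Cdkn1c (lower in PF) passed as well. In ET against AD, 8 genes were tested and none was called, where 0.0127% of all genes were called, and 0 of the 8 had an unadjusted p below 0.05 against 2.74% of all genes. DESeq2 called 2 of these genes in ET against PF, 2 in PF against AD and 0 in ET against AD. H19 was too low to be tested in any of them and Apeg3 was not testable in ET against AD. Apeg3 was at 0 in every ET and AD library and passed the filter only through PF. The 3 comparisons share libraries, and the genes were chosen with these contrasts known, so the counts are only a description. Over the genes tested, the median log2 fold change of the imprinted genes was -0.11 in ET against PF, 0.01 in ET against AD and 0.07 in PF against AD, beside 0.01, 0.00 and -0.00 for all genes tested.

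Peg3, which encodes a zinc finger protein made from the paternal copy, was present at a similar level in the 3 diet groups. In the values below, counts were scaled to a common library size and are called normalized counts. Peg3 stood at 4619, 7398, 5165 and 5486 in ET replicates 1, 3, 4 and 5. It stood at 6262, 6743, 5969, 6564 and 5159 in PF replicates 1, 2 and 3, animal 11f5 and replicate 6. In AD replicates 1, 2, 3, 5 and 6 it stood at 6015, 6396, 6351, 5378 and 5032. The highest library and the lowest library were both from ET rats, and the groups overlapped. The means were 5667 ± 1208 (SD, n = 4) in ET, 6139 ± 622 (SD, n = 5) in PF and 5835 ± 605 (SD, n = 5) in AD. The log2 fold change was -0.12 (SE 0.13) in ET against PF, -0.04 (SE 0.13) in ET against AD and 0.07 (SE 0.08) in PF against AD. The 3 libraries that were left out held 5136 in ET, 6521 in PF and 6291 in AD, within the range of the others.

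Apeg3 is a non-coding RNA whose gene lies inside Peg3 on the opposite strand in the RefSeq annotation of rat assembly GRCr8. It was listed at 0 in all 11 ET and AD libraries and was present in all 6 PF libraries. The PF normalized counts were 206, 217 and 190 in replicates 1, 2 and 3, 210 and 201 in animals 11f5 and 11f6, and 145 in replicate 6. PF replicate 6 was the lowest PF library for both Apeg3 and Peg3. Against a floor of 3 deposited counts per library, each a mean over the 3 technical replicates, Apeg3 was at least 64.1-fold higher in PF than in ET and at least 55.8-fold higher in PF than in AD over the 14 libraries. With all 17 libraries the bounds were 53.6-fold and 56.2-fold. Because tissue was measured in bulk, fewer cells that make a transcript and less of it per cell cannot be told apart.

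In the same library, the Apeg3 count was 3.13% ± 0.167 (SD, n = 6) of the Peg3 count, from 2.82% in replicate 6 to 3.28% in replicate 1. As a share of both counts it was 3.18% in PF replicate 1, with an exact Clopper-Pearson 95% interval, from counts summed over the 3 technical replicates, of 2.95% to 3.43%, and 2.74% in PF replicate 6, with an interval of 2.49% to 3.01%. These intervals and the floors cover counting error only, since fragments copied in PCR are not independent molecules. With the same floor of 3 deposited counts, a count of 0 allowed Apeg3 at up to 0.0371% to 0.0707% of Peg3 in ET libraries and at up to 0.0366% to 0.0689% in AD libraries. The library kit marks strand, but the strand setting used in counting is not given in the sources used here, so it cannot be told whether reads of the sense and antisense genes were separated.

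**Figure D1:**
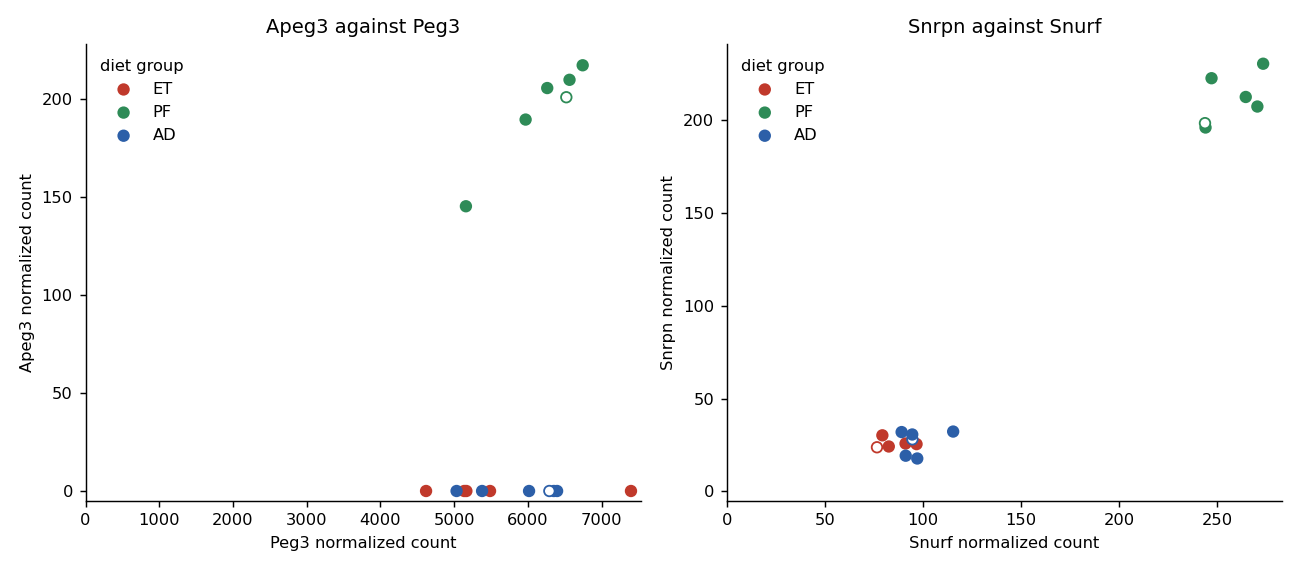
Apeg3 against Peg3 (left) and Snrpn against Snurf (right) as normalized counts, 1 point per library, coloured by diet group, with open points for the 3 libraries left out of the final analysis. The 6 PF libraries lie at 145 to 217 for Apeg3 with Peg3 between 5159 and 6743, while all ET and AD libraries lie at 0, and PF libraries are the upper right points in the Snrpn panel.

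Apeg3 was not alone in this pattern. Of 15253 genes with at least 10 counts in every PF library, 31 (0.203%), with Apeg3 among them, were listed at 0 in all ET and AD libraries. The 5 of them nearest to Apeg3 in mean PF normalized count were LOC688754 at 192, Cers1 and Gdf1 at 181 each, Derpc at 171 and Rybp at 237. Cers1 and Gdf1 are known to share a bicistronic transcript, and their values were the same to the printed digits in the lowest and the highest PF library (144 and 212). No gene had the mirrored pattern for ET or for AD.

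Of the 31 genes, 24 were matched in the RefSeq annotation of GRCr8, and the gene bodies of 15 of these overlapped another gene of the table, as Apeg3 does. Among all matched genes with at least 10 counts in every PF library, 4782 of 14279 (33.5%) did so. Of the tested genes matched in the annotation, 4.34% of the 5026 overlapping another gene were called in ET against PF, against 0.353% of the 9929 overlapping none. Of the 1113 tested genes that were not matched, whose overlap is unknown, 8.63% were called. In PF against AD the 3 shares were 4.01%, 0.354% and 8.42%, and in ET against AD 0%, 0.0202% and 0%. The part of overlapping annotation in the values of Apeg3 and Snrpn was not tested.

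The stretch just before the start of Peg3 in RefSeq is shown because Peg3 held its level while the gene antisense to it did not. It covers the 250 bases upstream of the start, at chr1:76130744-76130993 of GRCr8 on the plus strand. The capitals mark CG dinucleotides, the kind of site that can carry DNA methylation.
Peg3 upstream: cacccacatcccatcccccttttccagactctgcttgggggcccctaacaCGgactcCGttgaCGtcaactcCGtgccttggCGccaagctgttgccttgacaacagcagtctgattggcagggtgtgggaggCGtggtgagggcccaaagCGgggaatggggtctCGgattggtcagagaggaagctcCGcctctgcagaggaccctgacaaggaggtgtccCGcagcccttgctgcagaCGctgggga
It held 11 CG, and 33.6% of 33469 RefSeq promoters of the same length held at least as many. The window of Apeg3 held 1 CG, and 92.2% of promoters held at least as many. Methylation was not measured in this study.

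The libraries in which Peg3 was higher or lower than its diet mean were compared with those of 11266 genes with a mean of at least 100 counts. Over the 14 libraries, the 5 genes whose deviations followed Peg3 most closely were Chrnb2, a nicotinic receptor subunit, with a Pearson r of 0.959, Erbb4, a neuregulin receptor, at 0.957, Clasp1 at 0.941, Ttbk2 at 0.940 and Opa1 at 0.935. Of the other imprinted genes, Grb10 had an r of 0.521 and Igf2r of 0.467. Meg3 (0.162), Igf2 (-0.201) and Cdkn1c (-0.256) lay near or below 0. These values are a description over libraries that differ in depth and tissue composition, and the 5 genes were picked for their r.

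Snrpn, which encodes a protein of small nuclear ribonucleoproteins and is made from the paternal copy, was the other gene that set PF apart. Its normalized count was 25.8, 30.2, 24.2 and 25.5 in ET replicates 1, 3, 4 and 5. It was 212, 207, 196, 230 and 222 in PF replicates 1, 2 and 3, animal 11f5 and replicate 6. In AD replicates 1, 2, 3, 5 and 6 it was 32.0, 32.2, 17.8, 30.7 and 19.3. Every PF library was higher than every ET and AD library, and ET and AD overlapped. The libraries left out, at 23.8 in ET, 198 in PF and 28.1 in AD, fell with their diet groups. The log2 fold change was -3.01 (SE 0.09) in ET against PF, 2.99 (SE 0.13) in PF against AD and -0.01 (SE 0.20) in ET against AD.

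Snurf encodes a short protein upstream of Snrpn on the same strand, and both are known to come from a bicistronic transcript. The Snurf normalized count was 87.5 ± 7.95 (SD, n = 4) in ET, 260 ± 13.5 (SD, n = 5) in PF and 97.5 ± 10.5 (SD, n = 5) in AD. Its log2 fold change was -1.57 (SE 0.08) in ET against PF, 1.41 (SE 0.08) in PF against AD and -0.16 (SE 0.10) in ET against AD. Snurf was called lower in ET against PF, and in PF against AD it was under the log2 fold change of 1.5.

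Both genes were higher in PF in normalized counts, and the difference in means was larger for Snrpn, which was not tested. PF was above AD by 163 (SE 7.65) for Snurf and by 187 (SE 6.78) for Snrpn. PF was above ET by 173 (SE 7.24) for Snurf and by 187 (SE 6.10) for Snrpn. The Snrpn count was 82.0% ± 4.57 (SD, n = 6) of the Snurf count in PF, 30.6% ± 4.51 (SD, n = 5) in ET and 27.5% ± 6.70 (SD, n = 6) in AD. Within a library, Snurf exceeded Snrpn by 59.4 ± 9.04 (SD, n = 5) in ET, 46.4 ± 12.7 (SD, n = 6) in PF and 70.4 ± 9.78 (SD, n = 6) in AD. The genes overlap, so fragments counted for both cannot be told apart in the deposited table.

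The stretch upstream of Snurf is shown because Snurf and Snrpn shared their pattern. The RefSeq start of Snrpn lies 234 bases downstream of that of Snurf, and the 300-base windows around the 2 starts share 66 bases. The 250 bases before Snurf lie at chr1:120339154-120339403 of GRCr8 on the minus strand, printed 5′ to 3′ with CG dinucleotides in capitals.
Snurf upstream: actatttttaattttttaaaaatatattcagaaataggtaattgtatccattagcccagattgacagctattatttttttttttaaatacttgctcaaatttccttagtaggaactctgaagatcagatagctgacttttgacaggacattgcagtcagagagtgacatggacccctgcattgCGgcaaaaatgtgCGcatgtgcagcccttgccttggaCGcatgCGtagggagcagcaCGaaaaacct
It held 5 CG, the median of all promoters, and 55.3% of promoters held at least as many. The window of Snrpn held 7 CG, at or above which 45.2% of promoters lay. Among the imprinted genes the count ranged from 1 in Apeg3 to 38 in Grb10 and 41 in Dlk1, and 8 of the 10 genes had a window in the table.

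**Figure D2:**
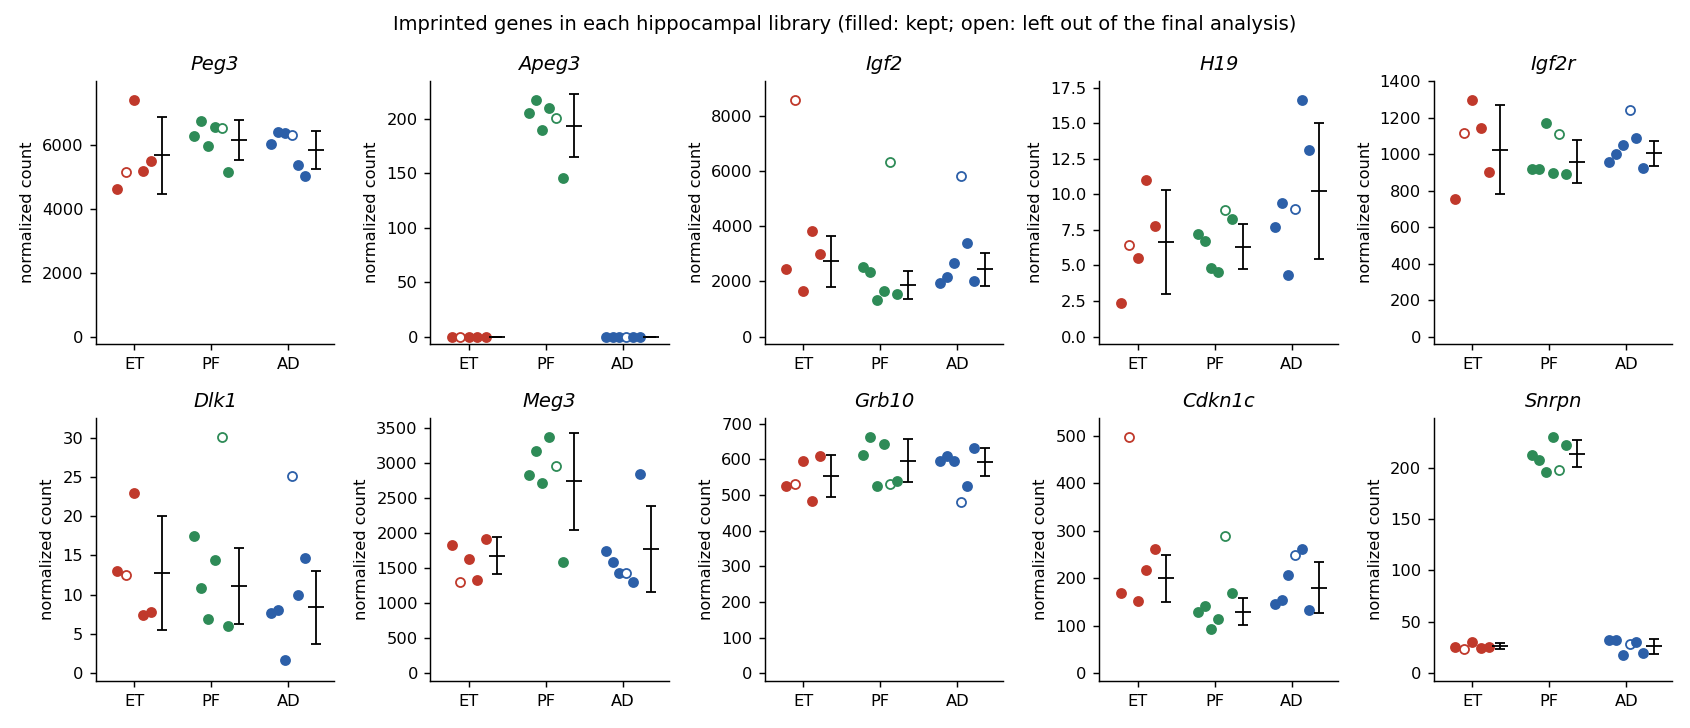
Normalized count of each of the 10 imprinted genes in every library, by diet group, with open points for the 3 libraries left out and a bar for the mean and SD of the others. Apeg3 and Snrpn are high in PF only, Igf2 and Cdkn1c have the highest value of each diet group in a left-out library except Cdkn1c in AD, and in the Meg3 panel 1 PF library lies low and 1 AD library lies high.

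Igf2, a growth factor made by the choroid plexus and meninges in the adult brain, varied widely among libraries. Its normalized counts were 2446, 1633, 3807 and 2996 in ET replicates 1, 3, 4 and 5. They were 2503, 2329, 1309, 1654 and 1557 in PF replicates 1, 2 and 3, animal 11f5 and replicate 6. In AD replicates 1, 2, 3, 5 and 6 they were 1951, 2151, 2646, 3372 and 2024. The 3 groups overlapped, with ET reaching highest and PF lowest. The log2 fold change was 0.54 (SE 0.25) in ET against PF, 0.16 (SE 0.23) in ET against AD and -0.38 (SE 0.19) in PF against AD, and none was called. Without ET replicate 4, the highest of the 14 libraries, the value of ET against PF was 0.34 and that of ET against AD was -0.04. The 3 libraries left out held 8566 in ET, 6313 in PF and 5818 in AD, the highest of each diet group.

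Cdkn1c, a cyclin-dependent kinase inhibitor made from the maternal copy, likewise had its lowest mean in PF. Its normalized counts were 169, 152, 217 and 262 in the 4 ET libraries, in the order given for Igf2. In PF they were 130, 141, 92.9, 114 and 169, and in AD 145, 153, 207, 262 and 132. PF was lowest on average, at 129 ± 28.5 (SD, n = 5), beside 200 ± 49.6 (SD, n = 4) in ET and 180 ± 54.0 (SD, n = 5) in AD, and the groups overlapped. The log2 fold change was 0.63 (SE 0.19) in ET against PF, 0.15 (SE 0.22) in ET against AD and -0.47 (SE 0.20) in PF against AD, with no call. Leaving out each library in turn, these ranged from 0.47 to 0.74, from -0.01 to 0.32 and from -0.58 to -0.30. The left-out libraries held 498 in ET, 289 in PF and 248 in AD.

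Markers of cells that lie beside the hippocampus were compared with Igf2 and Cdkn1c, a relation chosen after the data were seen. Of 8 markers of meningeal fibroblasts, such as Col1a1 and Lum, none was at 0, and their summed normalized count was 2173 to 3836 in ET, 2021 to 3540 in PF and 2583 to 4559 in AD. Over the 14 libraries, Igf2 rose with the mean of these markers, with a Pearson r of 0.861 (permutation p = 9.0e-05, adjusted over 4 relations 0.00036) and a Spearman rho of 0.881 (permutation p = 5.0e-05, adjusted 0.0002). Without AD replicate 3 and PF replicate 3, the 2 libraries farthest from the median, r was 0.869, and with the diet means removed it was 0.881. Against the choroid plexus markers, Igf2 had an r of 0.185 (permutation p = 0.526) and a rho of 0.103 (permutation p = 0.725). The 3 libraries richest in choroid plexus markers are not among the 14. The relations of both genes with these markers therefore cover only the lower part of their range. None of the 10 choroid plexus markers was at 0. In the 3 libraries rich in these markers the fibroblast sum was 2167 to 6418. In the left-out ET library, with Igf2 at 8566, it was 6418, above the 3836 of the highest other ET library. In the left-out PF and AD libraries, with Igf2 at 6313 and 5818, it did not exceed that of the highest other library of the same diet.

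For Cdkn1c, r with the fibroblast markers was 0.668 (permutation p = 0.0095, adjusted 0.019) and rho was 0.459 (permutation p = 0.0995, adjusted 0.199). The relation weakened to an r of 0.527 without the same 2 libraries, and it was 0.681 with the diet means removed. With the choroid plexus markers r was 0.125 (permutation p = 0.672) and rho was 0.196 (permutation p = 0.503). The part of meningeal or choroid plexus tissue in the diet values of Igf2 and Cdkn1c was not tested.

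**Figure D3:**
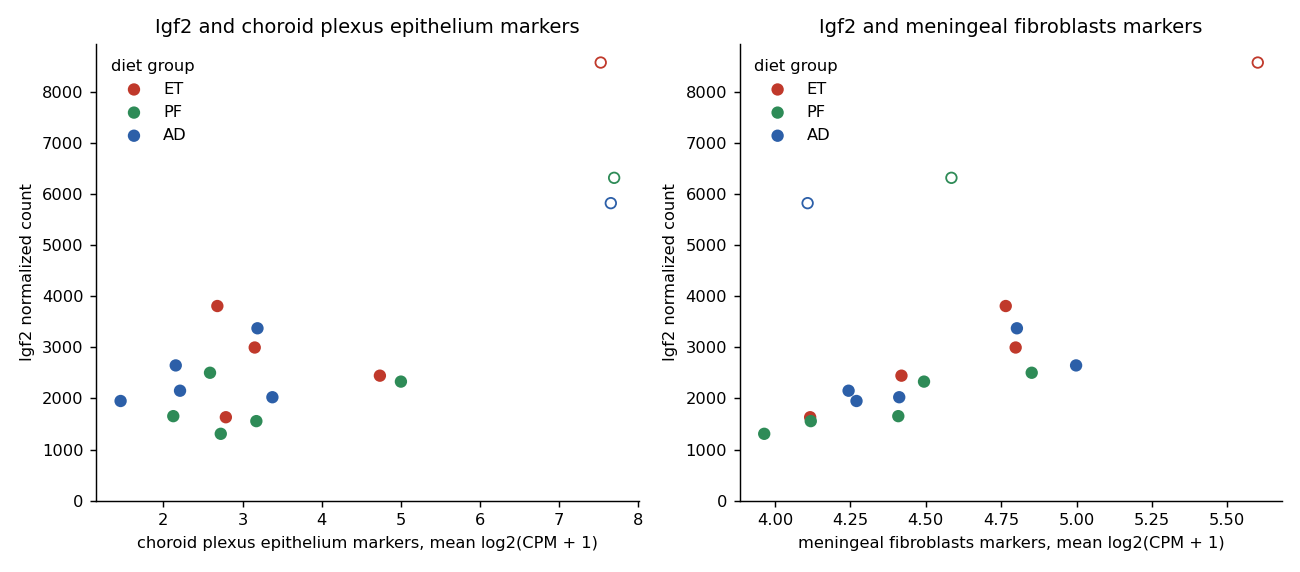
Igf2 normalized count against the mean log2(CPM + 1) of choroid plexus markers (left) and of meningeal fibroblast markers (right), 1 point per library, with open points for the 3 libraries left out. The open points have the highest choroid plexus values and Igf2 of 5818 to 8566, and are not in the correlations. Among the 14 filled points r was 0.861 with the fibroblast markers and 0.185 with the choroid plexus markers.

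H19, the non-coding RNA next to Igf2 that is made from the maternal copy, was near the limit of detection, at 2.35 to 16.6 normalized counts over all libraries. The means were 6.64 ± 3.64 (SD, n = 4) in ET, 6.32 ± 1.59 (SD, n = 5) in PF and 10.2 ± 4.77 (SD, n = 5) in AD, and the groups overlapped. Igf2r, the receptor that clears IGF2, was at 753 to 1298 in all libraries, with means of 1025 ± 243 (SD, n = 4) in ET, 959 ± 118 (SD, n = 5) in PF and 1005 ± 68.0 (SD, n = 5) in AD. Its log2 fold change was 0.09 (SE 0.15) in ET against PF, 0.03 (SE 0.14) in ET against AD and -0.07 (SE 0.08) in PF against AD. Grb10, an adaptor that restrains insulin and IGF receptor signalling, stood at 479 to 663, with means of 552 ± 59.2 (SD, n = 4) in ET, 597 ± 61.6 (SD, n = 5) in PF and 592 ± 40.1 (SD, n = 5) in AD. Its log2 fold change was -0.11 (SE 0.09) in ET against PF, -0.10 (SE 0.08) in ET against AD and 0.01 (SE 0.07) in PF against AD. For Igf2r and Grb10 the differences between diets were within 2 SE of 0 and the groups overlapped.

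Dlk1 and Meg3 lie in the same imprinted cluster, with Dlk1, a Notch-related membrane protein, made from the paternal copy and the non-coding RNA Meg3 from the maternal copy. Dlk1 was low, at 1.68 to 30.1 normalized counts, and the diet groups overlapped. Its log2 fold change was 0.19 (SE 0.40) in ET against PF, 0.63 (SE 0.46) in ET against AD and 0.44 (SE 0.40) in PF against AD. The direction of ET against PF was not stable: the value was -0.25 without ET replicate 3, the highest of the 14 libraries, and -0.15 with all 17 libraries. Without ET replicate 3, ET against AD was 0.19. Leaving out each library in turn, PF against AD ranged from 0.20 to 0.72.

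Of the 14 libraries, the 5 highest in Meg3 were 4 PF libraries and 1 AD library. Its normalized counts were 1835, 1632, 1336 and 1924 in ET replicates 1, 3, 4 and 5. They were 2837, 3182, 2711, 3380 and 1588 in PF replicates 1, 2 and 3, animal 11f5 and replicate 6. In AD replicates 1, 2, 3, 5 and 6 they were 1744, 1586, 1428, 1302 and 2839. PF replicate 6 lay among the ET and AD libraries, and AD replicate 6 lay among the PF libraries, so the groups overlapped. In the same libraries, Apeg3 and Snrpn went with the labelled diet: they stood at 145 and 222 in PF replicate 6, and at 0 and 19.3 in AD replicate 6. The log2 fold change was -0.70 (SE 0.20) in ET against PF, 0.62 (SE 0.23) in PF against AD and -0.08 (SE 0.22) in ET against AD, and none was called. The left-out libraries held 1300 in ET, 2966 in PF and 1431 in AD. Without PF replicate 6 the log2 fold change was -0.85 in ET against PF and without AD replicate 6 it was 0.86 in PF against AD.

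The Meg3 gene holds Mir770, whose mature forms are shown because Mir770 was the only miRNA gene inside an imprinted gene of the 10 that had counts. They are given from RefSeq, GRCr8, on the plus strand of chromosome 6, with the seed (bases 2 to 8) in capitals.
rno-miR-770-5p: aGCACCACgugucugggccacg
rno-miR-770-3p: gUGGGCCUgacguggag
Their seeds differ. The libraries were made from polyadenylated RNA, so counts on the miRNA gene are fragments of a longer transcript. The Mir770 count was 1.41% ± 0.381 (SD, n = 5) of the Meg3 count in ET, 1.56% ± 0.186 (SD, n = 6) in PF and 1.60% ± 0.178 (SD, n = 6) in AD, and the groups overlapped. Mir675 in H19 and Mir483 in Igf2 were listed at 0 in every library.

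**Figure D4:**
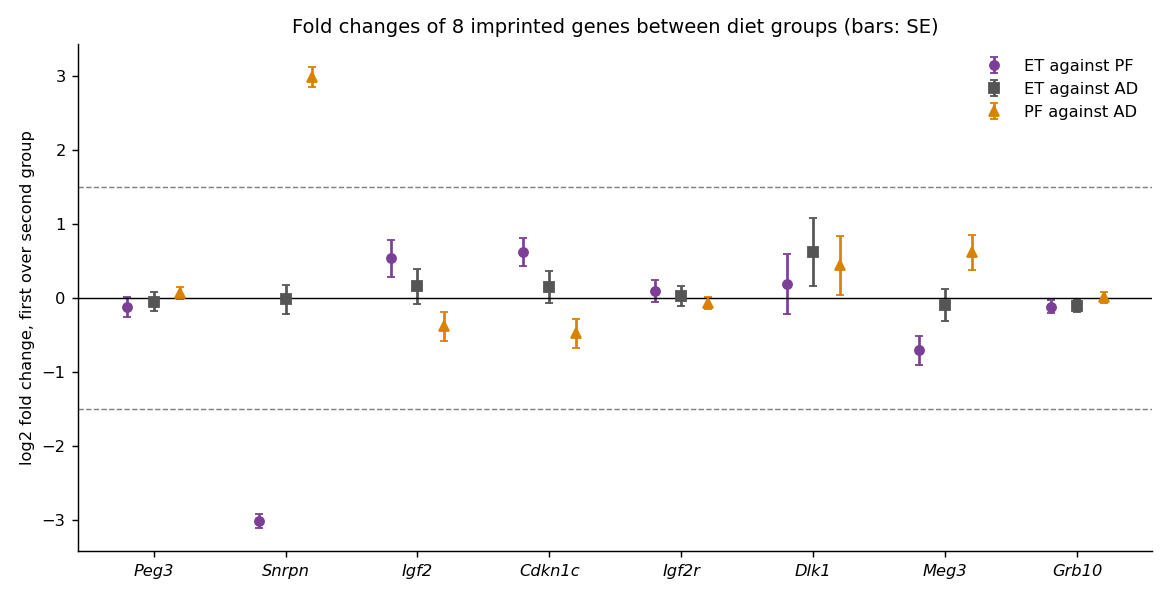
Log2 fold change of 8 imprinted genes in the 3 diet comparisons, with bars of 1 SE and dashed lines at a log2 fold change of 1.5 in either direction, Apeg3 and H19 not shown. Snrpn lies beyond the lines at -3.01 and 2.99 where PF is compared and at -0.01 in ET against AD, and the other 7 genes lie between the lines in all 3 comparisons.

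Sex was not used to choose the genes, and the ET and PF libraries allowed a test of it with diet in the fit. Of 9 genes that passed the filter, 0 were called by edgeR, where 0.0249% of all genes were called higher in males, 0.00622% lower and 0.0311% in either direction, and 0 by DESeq2. By an unadjusted p below 0.05, 1 of the 9 passed beside 1.87% of all genes, Cdkn1c, with a log2 fold change of 0.38 (SE 0.16) higher in males and an adjusted p-value of 1.00 by the edgeR quasi-likelihood test. The largest difference in size was that of Dlk1, at -0.69 (SE 0.38) with an adjusted p-value of 1.00. For Snrpn it was 0.04 (SE 0.09) and for Peg3 -0.15 (SE 0.13), each with an adjusted p-value of 1.00. Apeg3 passed the filter only through PF and was at 0 in every ET library, so it gave no test of sex over both diets.

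A wider list of 69 imprinted genes, from general knowledge of the mouse and rat, was examined beside the 10, and 59 were found in the table. In ET against PF, 49 were tested and 1 was called lower, Snurf, where 2.13% of all genes were called lower, and none was called higher. By an unadjusted p below 0.05, 5 passed (3 lower and 2 higher in ET), beside 11.9% of all genes. In PF against AD, 49 were tested and none was called by edgeR or DESeq2, where edgeR called 2.05% of all genes, with 8 at an unadjusted p below 0.05 (16.4% of all genes tested), of which 5 were higher and 3 lower in PF. In ET against AD, 48 were tested, none was called by edgeR or DESeq2, where edgeR called 0.0127% of all genes, and none had an unadjusted p below 0.05, beside 2.74% of all genes. The median log2 fold change was -0.02 in ET against PF, -0.01 in ET against AD and 0.01 in PF against AD.

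Groups that did not overlap were also counted. Among the 10 genes, 2 of 9 did not overlap in ET against PF, Apeg3 and Snrpn, beside 6.76% of all genes tested, and the same 2 in PF against AD, beside 6.62%. None of 8 failed to overlap in ET against AD, beside 1.21%. Among the wider genes, 3 of 49 (6.12%) did not overlap in ET against PF (Sgce, Nap1l4 and Snurf) and 1 of 49 (2.04%) in PF against AD (Snurf), shares near or below those of all genes.

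Genes of the wider list that lie near the 10 were also examined, and other genes lying between them were not. Usp29, separated from Peg3 by 2 genes of the table, stood at 804 ± 101 (SD, n = 4) in ET, 896 ± 91.3 (SD, n = 5) in PF and 831 ± 63.5 (SD, n = 5) in AD. Its log2 fold change was -0.16 (SE 0.10) in ET against PF and 0.11 (SE 0.07) in PF against AD. Zim1, which neighbours Apeg3, had log2 fold changes of 0.43 (SE 0.38) and 0.12 (SE 0.18). Of these 13 neighbours, 1 was called in ET against PF, Snurf, beside 2.17% of all genes tested, and 0 were called in PF against AD, beside 2.05%, or in ET against AD, beside 0.0127%. Kcnq1 was not tested in PF against AD.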

How the data were processed

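RNA was sequenced by the study from polyadenylated RNA of 17 rat hippocampi (5 ET, 6 PF, 6 AD), with strand-specific library preparation. The authors mapped reads to mRatBN7.2 with Bowtie2 2.4.2 and counted fragments on exons with featureCounts 2.0.1, at a minimum mapping quality of 10 and allowing multiple features, and the strand setting and annotation release are not given in the sources used here. The deposited values are expected counts, namely counts averaged over 3 technical replicates, not normalized, and 53.3% were whole within 0.001. Samples were grouped by diet from the labels. Averaged counts were rounded, filtered with filterByExpr, scaled by TMM and compared in edgeR 4.0.16 (R 4.3.3) by its quasi-likelihood test on the 14 libraries of the study's final analysis, with Benjamini-Hochberg adjustment over all genes. Standard errors were the log2 fold change over the square root of F. No pair of libraries of a diet was within sampling noise (smallest chi-square per gene 8.36 over 40 pairs). Tested on simulated ET against PF data with 200 changed genes, edgeR recovered 200 at 4-fold among 15919 genes and 200 at 8-fold among 15923 genes. The changed genes were drawn from well-counted genes and every gene had the same fixed spread. The simulation therefore does not cover genes with low counts or smaller changes. Correlations used 100000 permutations, two-sided, in scipy 1.17.1.

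The genes and lists were chosen with earlier results of these data known. The named genes are the 10 genes, those of the wider list that were called or neighbour or overlap one of them, and the 5 genes most like Peg3 and most like Apeg3. Sgce falls outside this rule and was named after its values were seen. Sequences were copied from RefSeq tables of GRCr8, which differs from the build of the counts, and no coordinates of the counts were used. Alternatives were DESeq2 1.42.0, median-of-ratios scaling, no filter, all 17 libraries, summed technical replicates, sex as a covariate, 1 fit of 3 diets, a replicate block, a fold change above 1.5, and leaving out each library. The sex covariate was the labelled sex, which the Y-linked transcripts went against in 2 AD libraries, so its fits with AD are limited. Marker relations were added after seeing the data.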

Additional observations from a re-analysis of the deposited data

Results flagged for a closer look

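In groups of 4 to 10 libraries, values far from the others were sought in 28 groups, of which chance flags about 1 in 20. Igf2 was far above its group in 2 of the 3 libraries rich in choroid plexus transcripts: PF animal 11f6 held 6313 normalized counts beside 2503 in the next PF library, and AD replicate 4 held 5818 beside 3372. The other such library, ET replicate 2, held the highest value of all 17, 8566 beside 3807, but its gap was under the critical value for 5 libraries. Meg3 was low in PF replicate 6, at 1588 beside 2711 in the next PF library, and high in AD replicate 6, at 2839 beside 1744 in the next AD library.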

How the results depend on the processing

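Apeg3 and Snrpn were called under all 19 settings of ET against PF and all 20 of PF against AD, the lower fold threshold included. No other of the 10 genes was called under any. Both were chosen with their diet pattern known, and the settings reuse the same counts. Their repeated calls therefore describe the processing and are no further evidence of a difference. The fitted value of Apeg3 depends on the prior count and is no bound. Over the alternatives, Snrpn ranged from -3.08 to -2.85 in ET against PF and from 2.88 to 3.08 in PF against AD. Of 26 pairs of a gene and a diet comparison, 10 had the opposite sign under at least 1 alternative, none of them called: Dlk1 and Igf2r in ET against PF, Grb10 in PF against AD, and Peg3, Snrpn, Igf2, Cdkn1c, Igf2r, Meg3 and Grb10 in ET against AD. Leaving out each library in turn, Igf2 ranged from 0.34 to 0.72 in ET against PF.

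The counts over all genes moved more than those of the imprinted genes. In ET against PF, genes called higher were 6, and 10 with technical replicates summed, 3 with sex as a covariate, 17 at a fold change above 1.5 and 2 to 6 without each library in turn. In PF against AD, genes called lower were 4, and 8 with no filter, 8 with technical replicates summed and 18 at a fold change above 1.5, while genes called higher were 323, and 485 with no filter, 440 with technical replicates summed and 454 at a fold change above 1.5. Genes called lower in ET against PF were 343, and 461, 461 and 442 under the same 3 alternatives. In PF against AD, 1 wider imprinted gene, Snurf, was called higher at a fold change above 1.5. In ET against AD, 0 to 1 genes were called higher without each library in turn.

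With the replicate block in the fit, 194 genes were called lower and 3 higher in ET against PF, and 0 lower in ET against AD. In PF against AD, 290 were called higher and 5 lower with the block. Under the block the diet difference rests on the same-numbered pairs alone (2 in ET against PF, 3 in ET against AD and 4 in PF against AD), so these values also leave out the other libraries. In ET against AD under it, Meg3 moved from -0.08 to 0.28 and Igf2 from 0.16 to -0.18, and in ET against PF Igf2 moved from 0.54 to 0.14. The deviations of same-numbered libraries from their diet means had correlations of -0.01 to 0.64 (2 pairs) in ET against PF, -0.29 to 0.14 (3 pairs) in ET against AD and -0.02 to 0.08 (4 pairs) in PF against AD, beside means of -0.04, 0.02 and -0.00 for differently numbered libraries. The labels do not say that a number marks a pair, and 2 pairs are too few to settle it in ET against PF. With the floor of 3 deposited counts, a count of 0 allows a transcript at up to 1.71e-05% to 2.76e-05% of a library.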
